A study of Homo sapiens with 8 samples.

Results

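Messenger RNA of 9 genes of the major histocompatibility complex (MHC) class I pathway was followed in single-cell transcriptomes of SUM159, a long-established cell line from a human breast cancer of the triple-negative kind. The genes were chosen by name: the class I heavy chains HLA-B, HLA-C, HLA-E and HLA-F, their shared light chain B2M, the peptide transporter subunits TAP1 and TAP2, the transporter's docking protein TAPBP, and the inducible proteasome subunit PSMB9. They are 9 of the 18955 genes in the deposited table, and 8 of them were among the 9288 genes tested; HLA-F lay below the minimum level.

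The cells carried a lentiviral ClonTracer barcode library and came from 8 libraries with 5738 cells in all. Parental cells were sampled before treatment (pre-treatment). In the experiment on JQ1 with paclitaxel, cultures were passaged up to 18 times in DMSO vehicle, in paclitaxel at 0.6 nM, in JQ1 at 100 nM (JQ1-A), or in JQ1 with paclitaxel at those doses. In the experiment on JQ1 with palbociclib, they were kept in palbociclib at 160 nM, in JQ1 at 100 nM (JQ1-B), or in both; no vehicle library of that experiment was analysed here. JQ1 is an inhibitor of BET bromodomain proteins, palbociclib an inhibitor of the cell cycle kinases CDK4 and CDK6, and paclitaxel a microtubule stabilizer. Replicate cultures under the same treatment were mixed before encapsulation, and only 2 cultures of JQ1 with palbociclib survived, so each treatment had 1 library within an experiment and the spread between cultures was not measured.

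Class I molecules show peptides from inside the cell to CD8 T cells. The proteasome, in which interferon-induced subunits such as PSMB9 can replace constitutive ones, cuts proteins to peptides. The TAP1/TAP2 transporter carries these into the endoplasmic reticulum, where TAPBP (tapasin) holds an empty heavy chain and B2M beside it until a peptide binds. HLA-B and HLA-C are classical, highly variable heavy chains, while HLA-E and HLA-F are less variable and are known for contacts with receptors of natural killer cells. Interferons, acting in part through IRF1, NF-κB and the transactivator NLRC5 are known to raise transcription of these genes, and loss of class I presentation is a known route by which tumor cells avoid T cells.

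On GRCh37, the build of the files, 8 of the 9 genes lie in the MHC on chromosome 6. The HLA-F gene spans 29690552 to 29706305 on the plus strand, HLA-E 30457286 to 30461971 on the plus strand, HLA-C 31236526 to 31239907 on the minus strand and HLA-B 31321649 to 31334844 on the minus strand. TAP2 (32789610 to 32806516, minus), PSMB9 (32811913 to 32827628, plus), TAP1 (32812986 to 32821593, minus) and TAPBP (33267471 to 33282061, minus) follow. B2M is the exception, on chromosome 15 from 45003556 to 45011049, plus strand. All 9 are protein coding, and the counts are of 3′ tags, which fall mostly near the transcript's end. The heavy chain genes share long stretches of sequence, so the count of each is uncertain, and the variable HLA genes were counted against a single reference sequence. TAP2 had a row marked as the second one of that symbol, and a read-through gene overlaps it, so its counts are uncertain.

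The promoters of the members are shown because the genes are often described as one interferon-responsive group. Windows from 250 bases before to 50 bases after the annotated start were taken from RefSeq on GRCh38.p14, which held windows for 8 of the 9 members (HLA-E had none). The letters searched, on both strands, were GAANNGAAA, with or without a further A before the gap, for an interferon response element and GGGNNTTCC, with or without a further T after the gap, for an NF-κB motif. Capitals mark a match, overlapping matches run together, and each line is written 5′ to 3′ along the gene. HLA-B, TAP1 and PSMB9 are shown because their RNA was lower under JQ1, and B2M and TAPBP because theirs did not pass the test. HLA-B is at chr6:31357130-31357429, minus strand; TAP1 at chr6:32853655-32853954, minus strand; PSMB9 at chr6:32853942-32854241, plus strand; B2M at chr15:44711267-44711566, plus strand; and TAPBP at chr6:33314029-33314328, minus strand.
HLA-B: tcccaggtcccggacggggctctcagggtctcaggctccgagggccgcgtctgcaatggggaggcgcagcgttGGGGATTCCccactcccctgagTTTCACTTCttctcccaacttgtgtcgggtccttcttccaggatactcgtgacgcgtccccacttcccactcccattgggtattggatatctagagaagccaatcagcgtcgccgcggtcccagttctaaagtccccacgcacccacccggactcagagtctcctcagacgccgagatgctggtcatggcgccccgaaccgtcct
TAP1: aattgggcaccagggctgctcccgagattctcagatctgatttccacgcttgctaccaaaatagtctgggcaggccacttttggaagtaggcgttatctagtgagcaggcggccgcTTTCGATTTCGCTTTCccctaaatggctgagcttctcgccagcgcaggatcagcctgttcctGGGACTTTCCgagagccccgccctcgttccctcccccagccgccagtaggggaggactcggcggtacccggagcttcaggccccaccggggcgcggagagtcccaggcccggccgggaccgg
PSMB9: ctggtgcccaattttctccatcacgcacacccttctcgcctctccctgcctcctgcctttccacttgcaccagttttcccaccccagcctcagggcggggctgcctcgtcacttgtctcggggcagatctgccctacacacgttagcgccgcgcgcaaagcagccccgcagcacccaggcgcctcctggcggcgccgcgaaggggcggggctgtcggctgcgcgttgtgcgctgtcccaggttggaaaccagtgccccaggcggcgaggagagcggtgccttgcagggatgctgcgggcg
B2M: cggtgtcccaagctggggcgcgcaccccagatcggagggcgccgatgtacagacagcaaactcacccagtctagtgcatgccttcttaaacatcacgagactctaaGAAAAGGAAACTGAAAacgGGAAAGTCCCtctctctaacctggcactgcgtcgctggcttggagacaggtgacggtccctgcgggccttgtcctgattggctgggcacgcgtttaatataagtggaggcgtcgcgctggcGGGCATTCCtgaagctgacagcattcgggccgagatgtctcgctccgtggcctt
TAPBP: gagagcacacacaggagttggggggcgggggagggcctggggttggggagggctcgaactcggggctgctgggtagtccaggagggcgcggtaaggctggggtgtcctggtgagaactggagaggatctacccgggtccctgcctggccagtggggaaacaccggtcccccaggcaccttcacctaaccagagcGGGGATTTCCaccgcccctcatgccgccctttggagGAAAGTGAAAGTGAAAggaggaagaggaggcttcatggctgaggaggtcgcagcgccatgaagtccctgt

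The interferon response letters were found in 7 of the 8 members with a window (HLA-B, HLA-C, HLA-F, B2M, TAP1, TAP2 and TAPBP), beside 10.6% of 35116 windows of the same length over all genes. PSMB9 was the member without them. Its annotated start lies only 488 bases from that of TAP1 on the opposite strand, and the TAP1 window holds a pair of overlapping matches. The NF-κB letters stood in 4 members (HLA-B, B2M, TAP1 and TAPBP), beside 7.89% of all windows. A match is a description of the sequence; binding was not measured. HLA-B carries both kinds of match within a short stretch, and B2M, TAP1 and TAPBP carry both as well.

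Levels are given as CPM, the UMIs of a gene over all cells of a library scaled by that library's total. The libraries held 10621159 to 24240835 unique molecular identifiers (UMIs, each a captured RNA molecule), 459 to 1024 cells and a median of 3536 to 4147.5 genes per cell. Markers of the line were detected in every library (VIM, CD44, KRT18 and KRT8), ESR1 and PGR were at or near 0, and the leukocyte markers PTPRC, CD14 and CD79A reached at most 0.967 CPM in any library. Mitochondrial UMIs took a median of 3.72 to 3.96% of a cell's total before treatment, in DMSO and in paclitaxel. In the other 5 libraries they took 4.69 to 7.18%. Of the cell barcodes, which are not the ClonTracer barcodes, 13 sequences occurred in more than 1 library. ClonTracer barcodes were not analysed here. Fold changes are from edgeR's quasi-likelihood test on the summed UMIs with TMM scaling, which corrects the library totals for differences in composition, and adjusted p-values are Benjamini-Hochberg over all 9288 genes. JQ1 (4 libraries with, 4 without), palbociclib (2 against 6) and paclitaxel (2 against 6) entered as additive terms, with 4 degrees of freedom remaining.

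The comparison of libraries with and without JQ1 asked what BET inhibition left in the surviving populations. HLA-B, TAP1 and PSMB9 fell under JQ1, and the other 5 members tested did not pass the test. Of the 8 members, 3 were called and all 3 were lower, beside 19.7% of all tested genes called lower and 37.6% called in either direction. The median log2 fold change of the 8 members was -0.39, and that of all tested genes was -0.00316. A negative fold change was found in 7 of the 8 members, the exception being B2M, and in 50.2% of all tested genes.

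HLA-B, a classical heavy chain, stood at 108 CPM before treatment, 135 CPM in DMSO, 124 CPM in paclitaxel and 160.2 CPM in palbociclib. With JQ1 it stood at 77.1 CPM in JQ1-A, 60.8 CPM in JQ1+palbociclib, 84.0 CPM in JQ1+paclitaxel and 56.4 CPM in JQ1-B. The groups did not overlap, and the palbociclib library was the highest and JQ1-B the lowest. HLA-B averaged 132 ± 21.9 CPM without JQ1 and 69.6 ± 13.1 CPM under it (SD, n = 4 each). The fitted log2 fold change was -0.73 ± 0.18 (SE), with an adjusted p of 0.0172 by edgeR. Between neighbours in the order of levels, the counting intervals overlapped in 3 of 7 pairs. The call was lost without DMSO (-0.68, adjusted p = 0.0622 by edgeR), without JQ1-B (-0.65, adjusted p = 0.0588) and with the experiment as a term (-0.65, adjusted p = 0.0582). It was also lost in a fit of 3 matched pairs (-0.73, adjusted p = 0.0951) and within the JQ1+paclitaxel experiment (-0.40, adjusted p = 0.111). The latter was the smallest change of 18 alternatives. The fold change was -0.49 without the palbociclib library and -0.52 without JQ1+palbociclib, where the call held.

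HLA-C, the other classical heavy chain studied, was even among the libraries without JQ1, with 131 CPM before treatment, 128 CPM in DMSO, 121 CPM in paclitaxel and 129.6 CPM in palbociclib. It was at 95.5 CPM in JQ1-A, 76.7 CPM in JQ1+palbociclib, 96.7 CPM in JQ1+paclitaxel and 71.0 CPM in JQ1-B. All libraries with JQ1 lay below all others, but the fit gave -0.39 ± 0.14 (SE, adjusted p = 0.0522), just outside the threshold of 0.05. HLA-C passed it in 6 of 18 alternative fits, among them the one without the filter on low counts (adjusted p = 0.0436) and DESeq2 (adjusted p = 0.0294). It was smaller without the palbociclib library (-0.26, adjusted p = 0.167), with the experiment as a term (-0.30, adjusted p = 0.150) and within the JQ1+paclitaxel experiment (-0.08, adjusted p = 0.763).

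HLA-E, a ligand of natural killer cell receptors, varied little. Its levels were 103, 98.2, 96.7 and 105 CPM in the pre-treatment, DMSO, paclitaxel and palbociclib libraries. They were 95.7, 83.7, 85.6 and 77.8 CPM in JQ1-A, JQ1+paclitaxel, JQ1-B and JQ1+palbociclib. CPM of the groups met without overlapping, whereas on the TMM scale of the fit they overlapped, and the fold change was -0.04 ± 0.11 (SE, adjusted p = 0.797). Its sign was positive without palbociclib (0.11), without JQ1+palbociclib (0.08) and within the JQ1+paclitaxel experiment (0.17).

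HLA-F was scarce, with 266 UMIs in all libraries together. It was at 2.91 CPM before treatment, 3.01 CPM in DMSO, 2.70 CPM in paclitaxel and 4.35 CPM in palbociclib, from 41, 32, 49 and 72 UMIs. With JQ1 it was at 1.30, 1.39, 0.542 and 0.825 CPM in JQ1-A, JQ1+paclitaxel, JQ1-B and JQ1+palbociclib, from 21, 20, 11 and 20 UMIs. The groups did not overlap. In the fit without a filter on low counts, HLA-F fell by 1.501 ± 0.31 (log2, SE, adjusted p = 0.0033).

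B2M, the light chain of every class I molecule, was nearly level. Its values were 1409.9, 1406, 1373 and 1378 CPM before treatment and in DMSO, paclitaxel and palbociclib, and 1354, 1402, 1242 and 1218 CPM in JQ1-A, JQ1+paclitaxel, JQ1-B and JQ1+palbociclib. The groups overlapped through JQ1+paclitaxel. The fit gave 0.10 ± 0.10 (log2, SE, adjusted p = 0.43), and the sign turned to -0.10 when libraries were scaled by their totals only. UMIs of HLA-B and HLA-C together numbered 16.9 to 21.0 per 100 UMIs of B2M in the 4 libraries without JQ1 and 10.3 to 12.9 in the 4 with it, a ratio within each library that does not depend on scaling.

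TAP1, a subunit of the peptide transporter, was at 33.4 CPM before treatment, 43.0 CPM in DMSO, 41.8 CPM in paclitaxel and 40.1 CPM in palbociclib. It was at 24.8 CPM in JQ1-A, 22.9 CPM in JQ1+palbociclib, 18.9 CPM in JQ1+paclitaxel and 25.02 CPM in JQ1-B, all below the lowest library without JQ1. TAP1 averaged 39.6 ± 4.28 CPM without JQ1 and 22.9 ± 2.85 CPM under it (SD, n = 4 each), and the fit gave -0.60 ± 0.13 (log2, SE, adjusted p = 0.0101 by edgeR). The call held in every fit that left out 1 library, over a range of -0.71 to -0.51.

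Its partner TAP2 had few counts, from 77 to 254 UMIs per library. It was at 12.0, 7.25, 14.0 and 8.94 CPM before treatment and in DMSO, paclitaxel and palbociclib, and at 6.12, 5.65, 7.09 and 9.20 CPM in JQ1-A, JQ1+paclitaxel, JQ1-B and JQ1+palbociclib. The groups overlapped, and the fitted -0.39 ± 0.22 (log2, SE, adjusted p = 0.194) did not pass the test. It moved to -0.18 without either library with paclitaxel, to -0.25 without the pre-treatment library and to -0.56 without JQ1+palbociclib, and passed in none of these.

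TAPBP, which bridges the transporter and the heavy chain, was highest in palbociclib, at 79.7 CPM. The other libraries without JQ1 were at 46.2 CPM before treatment, 51.1 CPM in DMSO and 36.97 CPM in paclitaxel. With JQ1 it was at 42.8, 36.4, 37.4 and 44.7 CPM in JQ1-A, JQ1+paclitaxel, JQ1-B and JQ1+palbociclib, overlapping the group without. The JQ1 log2 fold change was -0.16 ± 0.16 (SE, adjusted p = 0.46) and became positive without the palbociclib library (0.083), without JQ1+palbociclib (0.055) and within the JQ1+paclitaxel experiment (0.15).

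PSMB9, the inducible subunit that can take the place of PSMB6 in the proteasome, was at 93.9 CPM before treatment, 102 CPM in DMSO, 71.9 CPM in paclitaxel and 106 CPM in palbociclib. The JQ1 libraries were close to each other, at 51.8 CPM in JQ1-A, 56.9 CPM in JQ1+palbociclib, 50.7 CPM in JQ1+paclitaxel and 47.6 CPM in JQ1-B, and all lay below the rest. PSMB9 averaged 93.5 ± 15.3 CPM without JQ1 and 51.7 ± 3.89 CPM under it (SD, n = 4 each), and the fit gave -0.65 ± 0.12 (log2, SE, adjusted p = 0.00579 by edgeR). PSMB9 kept its call in every fit that left out 1 library. Its UMIs per 100 UMIs of PSMB6 ranged from 25.9 in paclitaxel to 55.1 in palbociclib and did not separate the libraries by JQ1, as PSMB6 was also lower with JQ1. The corresponding ratio for PSMB8, the inducible partner of PSMB9, did separate them, with 27.0 to 51.5 UMIs per 100 UMIs of its constitutive counterpart PSMB5 without JQ1 and 18.1 to 23.2 with it.

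**Figure D1:**
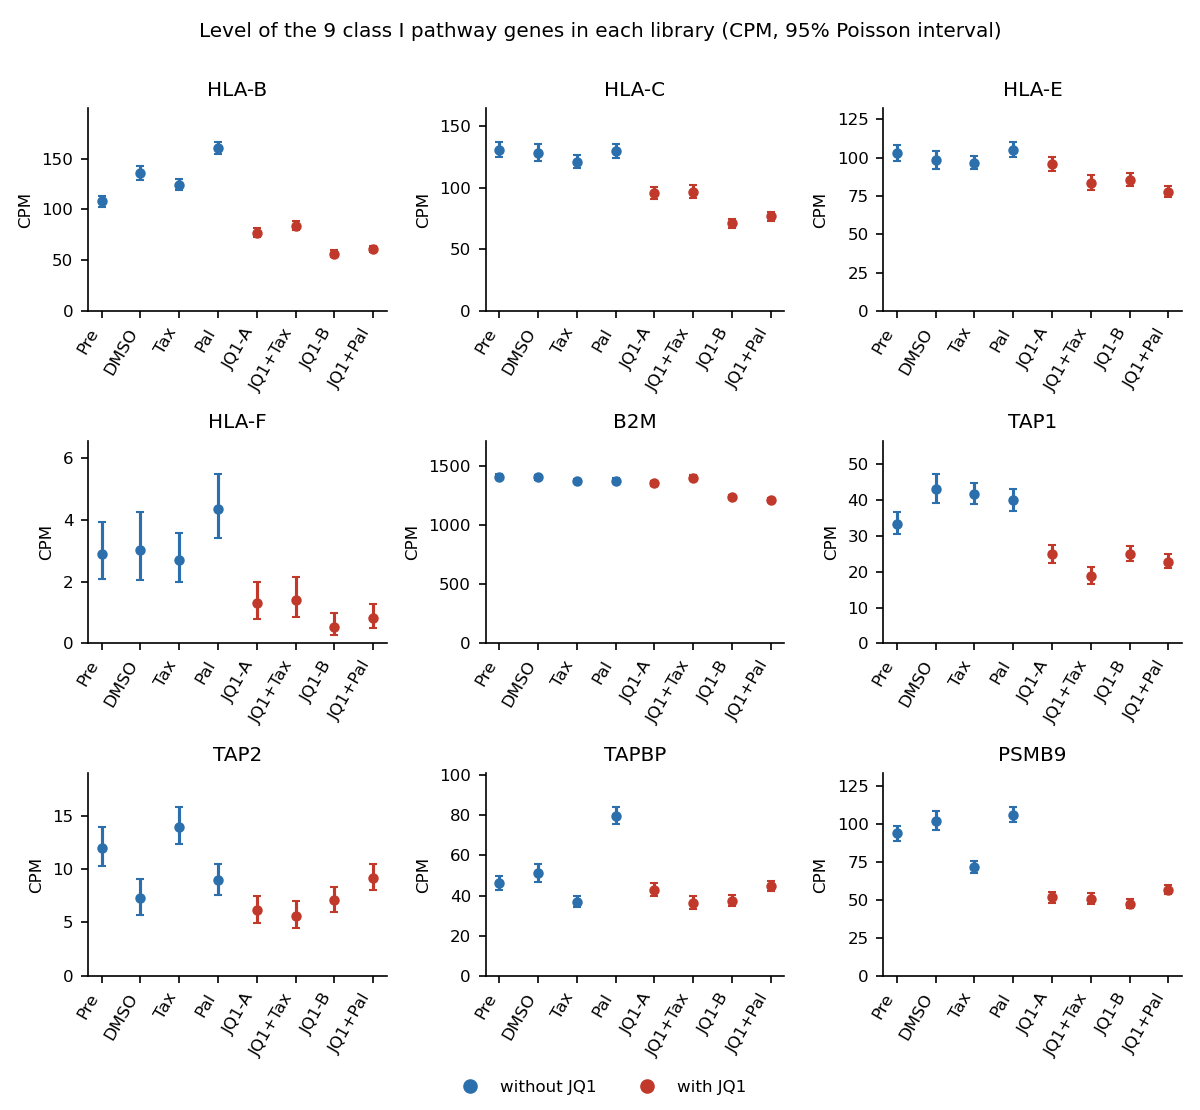
Level of each of the 9 genes (CPM, vertical axes from 0) in the 8 libraries, where Pre is pre-treatment, Tax paclitaxel and Pal palbociclib; points are libraries, bars 95% exact Poisson intervals of the UMI count, blue without and red with JQ1. HLA-B, HLA-C, HLA-F, TAP1 and PSMB9 show every red point below every blue one, B2M is nearly flat, and TAPBP is highest in palbociclib at 79.7 CPM.

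Counted over the members, every library with JQ1 lay below every library without it in 6 of 9 genes on the CPM scale (HLA-B, HLA-C, HLA-E, HLA-F, TAP1 and PSMB9), beside 22.7% of all tested genes. On the TMM scale this held for 5 of 9, all of these but HLA-E, beside 12.6%. Both counts of members include HLA-F, which lay below the minimum level of the tested genes behind these percentages. Without the TMM correction the median of all genes moved to -0.20 (log2), genes called lower numbered 2925 and genes called higher 862, against 1833 and 1655 with it, and 4 of 8 members were called, all lower, beside 31.5% of genes called lower. Within the JQ1+paclitaxel experiment TAP1 was the member called, as lower, beside 14.7% of genes called lower, and within the JQ1+palbociclib experiment HLA-B was, beside 1.19%. With JQ1-A set against DMSO and each combination against its partner drug, as 3 blocks, none of the 8 members was called, beside 2.34% of genes called lower. The log2 fold changes were about as large as in the fit of all 8 libraries, at -0.73 for TAP1 (adjusted p = 0.0525 by edgeR), -0.61 for PSMB9 (0.0848) and -0.73 for HLA-B (0.0951).

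Pairs of single libraries gave the size of the change within each experiment, with no test. These are ratios of CPM without the TMM correction, and the median gene with at least 20 CPM differed between pairs. Its ratio was 0.777 between JQ1-A and DMSO and 0.737 between JQ1+paclitaxel and paclitaxel. Between JQ1+palbociclib and palbociclib it was 0.965, so the members' ratios are not directly comparable between pairs. Between JQ1-A and DMSO, the ratio of CPM was 0.570 for HLA-B (95% counting interval 0.528 to 0.615), 0.577 for TAP1 (0.504 to 0.662) and 0.507 for PSMB9 (0.463 to 0.555). These 3 of the 7 members with at least 20 CPM were lower by 1.5-fold or more, beside 31.5% of such genes. Between JQ1+paclitaxel and paclitaxel, 1 of the 7 members passed that size, TAP1 with a ratio of 0.453 (0.392 to 0.521), beside 40.9% of genes. TAP2, below 20 CPM and so not counted, had a ratio of 0.404 (0.311 to 0.521) there. Between JQ1+palbociclib and palbociclib, 5 of the 7 members did, beside 9.03% of genes: HLA-B at 0.380 (0.356 to 0.405), HLA-C at 0.592, TAP1 at 0.571, TAPBP at 0.560 and PSMB9 at 0.536. The 2 libraries of JQ1 alone differed from each other by less, with no member of 7 lower by 1.5-fold in JQ1-B beside 0.719% of genes. HLA-B and HLA-C nevertheless had ratios of JQ1-B to JQ1-A of 0.731 (0.674 to 0.793) and 0.743 (0.691 to 0.799), beyond counting error.

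Whether the partner drugs moved the members was compared in the same fit. Palbociclib called none of the 8 members, beside 0.28% of all genes, and paclitaxel none, beside 0.0% (0 of 9288 genes by edgeR, with 395 at an unadjusted p under 0.05, and 9 by DESeq2). TAPBP had the smallest p for palbociclib, at 0.51 ± 0.20 (log2, SE, adjusted p = 0.181). This rested on the library of palbociclib alone: the value was 0.06 without that library and 0.90 (adjusted p = 0.0248) without JQ1+palbociclib. For paclitaxel the members' log2 fold changes lay between -0.23 for TAPBP and 0.24 for TAP2.

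Tests of the interaction asked whether the JQ1 effect differed with the partner drug. None of the 8 members was called for JQ1 by palbociclib, beside 0.0108% of genes, or for JQ1 by paclitaxel, beside 0.388%, in fits with 2 residual degrees of freedom. The estimates were nonetheless wide. With palbociclib present the JQ1 fold change was lower by 0.74 ± 0.21 for TAPBP (log2, SE; estimate -0.74, adjusted p = 0.162) and by 0.71 ± 0.29 for HLA-B (estimate -0.71, adjusted p = 0.255). With paclitaxel it was higher by 0.52 ± 0.20 for PSMB9 (adjusted p = 0.242).

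Other genes of the pathway were read from lists by role, and their counts are set beside the 19.7% of all tested genes called lower under JQ1 and the 37.6% called in either direction. Of 5 genes of the inducible proteasome, 4 fell under JQ1 and PSME1 did not pass the test: PSMB8 by 1.26 ± 0.11 (log2, SE, adjusted p = 0.000651), PSMB10 by 0.86 ± 0.22, the activator subunit PSME2 by 0.80 ± 0.09 and the assembly factor POMP by 0.58 ± 0.09. The subunits of the constitutive 20S core, which serves general protein breakdown, also fell in 9 of 13 tested and rose in none, with log2 fold changes of -0.83 for PSMA3, -0.67 for PSMB6, -0.57 for PSMB3 and -0.55 for PSMA4. The median over the 13 was -0.45. Of 4 tested genes of peptide loading and trimming, the trimming enzyme ERAP2 fell by 1.05 ± 0.17 (adjusted p = 0.00367) and the disulfide isomerase PDIA3 by 0.38 ± 0.12 (adjusted p = 0.0344), while the chaperones CALR and CANX had values of 0.21 and 0.08 that did not pass. Among other class I and class I-like genes, MICB, a stress ligand of natural killer cells, fell by 0.69 ± 0.23 and PROCR rose by 0.41 ± 0.09, and the remaining 2 tested did not pass. MICB and PSMB10 met the minimum for testing (5 CPM in at least 2 libraries) through the libraries without JQ1 and would not have met it through those with JQ1.

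Genes that act above the pathway moved in both directions. Of 21 tested regulators, 6 fell (19.7% of all tested genes did) and 5 rose. IRF1, an interferon-induced activator of class I genes, fell by 1.07 ± 0.27 (log2, SE, adjusted p = 0.0178), from 31.1 CPM without JQ1 to 12.7 CPM with it. The NF-κB subunit gene NFKB1 fell by 0.74 ± 0.16, RFXAP, a part of the RFX factor that binds class I and II promoters, by 0.57 ± 0.18, and IRF2 by 0.52 ± 0.17. SOCS1, an inhibitor of interferon signaling, rose by 1.37 ± 0.29 (adjusted p = 0.00922). STAT2, NFYA and RFX5, which transmit interferon signals or bind these promoters, rose by 0.79, 0.73 and 0.56. SOCS1 and STAT2 were tested through the libraries of 1 group alone, those with JQ1. NLRC5, the class I transactivator, named here after its value was seen, was at 5.29 CPM with JQ1 and 7.42 CPM without (fitted -0.28 ± 0.20, log2 and SE, adjusted p = 0.28).

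Of 25 interferon-stimulated genes, 8 lay below the minimum level, and 7 of the 17 tested reached it only in the libraries without JQ1, so that those genes could be tested only because they were higher there. Among them were the 4 with the lowest fold changes, IFIT2 (-2.78), ISG20 (-2.65), IFIT3 (-2.29) and IFI44L (-2.03), at means of 0.665, 1.23, 2.88 and 1.09 CPM with JQ1. Over the 14 genes that averaged at least 5 CPM over all 8 libraries, 11 fell and none rose, beside 19.5% of 8736 such genes called lower. The median log2 fold change of the 14 was -1.03. The choice by mean level was made after seeing the data and does not depend on which group is high. The 14 nevertheless include some of the 7 genes that reached the minimum for testing only without JQ1. Of 11 class II genes, HLA-DPB1 alone could be tested, and it too reached the minimum only without JQ1, at 5.50 CPM against 0.594 CPM with JQ1 (fitted -3.10 ± 0.37, log2 and SE). No gene of any of these lists was called for palbociclib or paclitaxel.

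**Figure D2:**
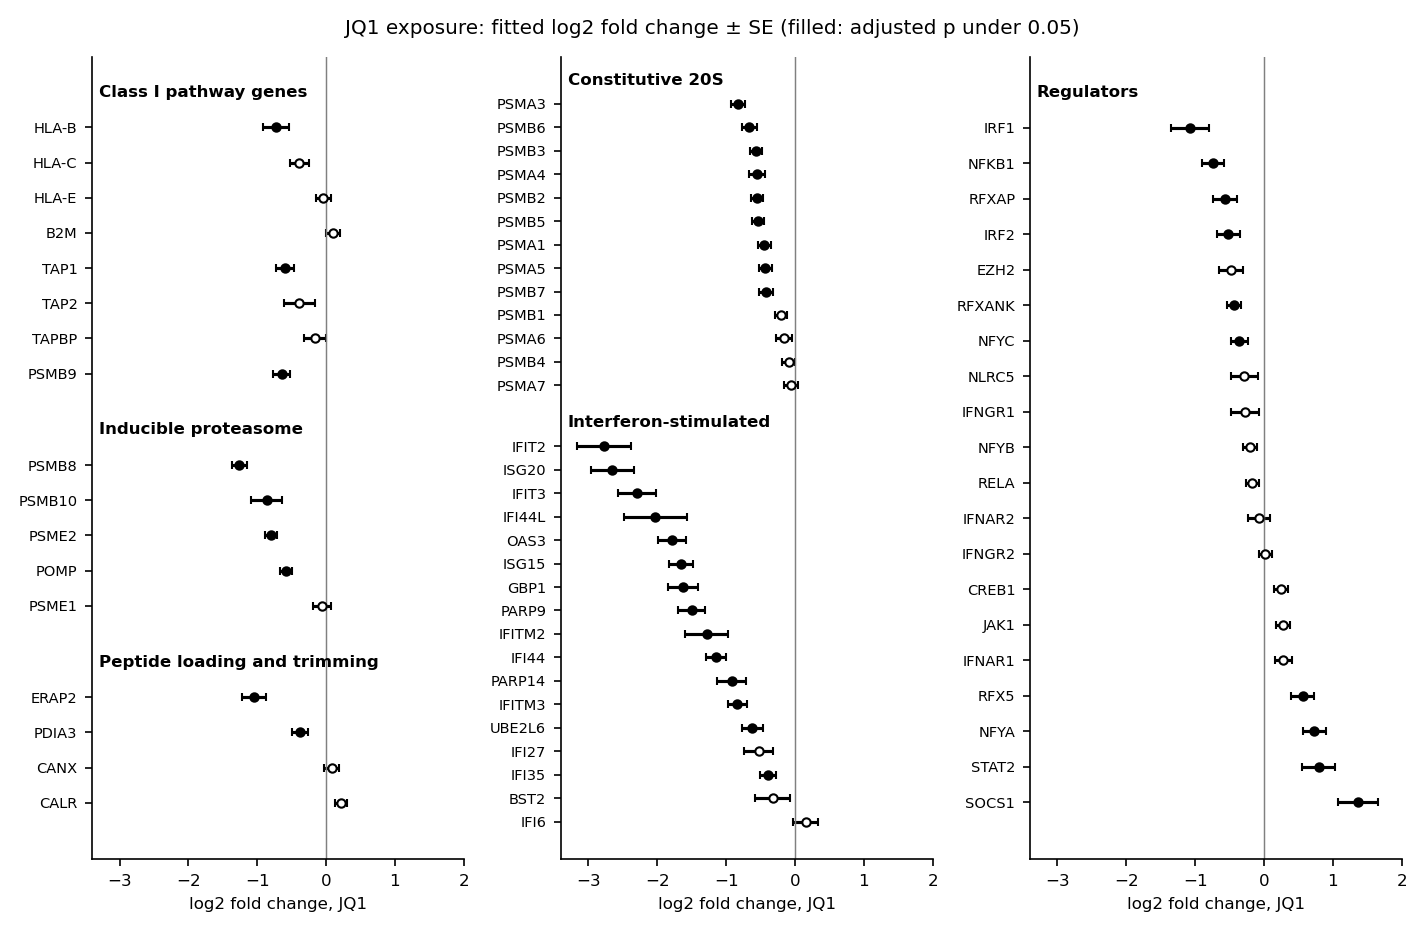
Fitted log2 fold change for JQ1 (horizontal axis; bars are ± 1 SE; filled points passed an adjusted p under 0.05) of the 8 tested class I pathway genes and of the tested genes of 5 lists, 1 regulator left out. HLA-B, TAP1 and PSMB9 are filled at -0.73, -0.60 and -0.65, the interferon-stimulated genes reach further down, 7 of them tested only through the libraries without JQ1, and regulators lie on both sides of 0.

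Apart from B2M, the members share a chromosome region with other genes, so the region was also described without them. From HLA-F to TAPBP, 62 other genes were tested, 19 fell under JQ1 (30.6%, beside 19.7% of all tested genes) and 6 rose, and their median log2 fold change was -0.07. Of the 7 tested members in the region, 3 fell and none rose.

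Over the 8 libraries, the members were correlated with each other to differing degrees (Pearson r of log2(CPM + 1), described over 8 libraries that share the JQ1 split). HLA-B followed HLA-F (r = 0.985) and HLA-C (0.951), TAP1 followed PSMB9 (0.852), and TAP2 and TAPBP were nearly unrelated (0.090). The genes whose levels were most like the members' mean pattern, among 4426 genes averaging 20 CPM or more, were the interferon-inducible DNA sensor IFI16 (r = 0.986), GNL1 (0.980), CUEDC2 (0.976), CRADD (0.976) and PSMB8 (0.974). IFI16 was at 52.2 to 62.8 CPM in the libraries without JQ1 and at 26.4 to 29.7 CPM in those with it.

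The lower level could lie in fewer cells with the RNA or in less RNA per cell, so shares of cells with a UMI were counted after each cell was thinned to 10000 UMIs, which kept 5487 cells. HLA-B was found in 58.0% of cells before treatment, 67.6% in DMSO, 64.6% in paclitaxel and 73.0% in palbociclib. In JQ1-A, JQ1+paclitaxel, JQ1-B and JQ1+palbociclib its share was 46.9%, 49.0%, 39.3% and 39.2%. The 95% exact interval was 53.9 to 62.0% before treatment, the lowest library without JQ1. Without thinning the HLA-B shares were 78.6 to 91.5% in the libraries without JQ1 and 61.5 to 72.5% in those with it.

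The shares of HLA-C, HLA-F, PSMB9 and TAP1 were likewise lower in every library with JQ1. The share of all genes that separated in this way was not counted, and thinning does not correct for composition as TMM does. HLA-C was found in 64.5 to 69.5% of cells without JQ1 and 48.7 to 57.8% with it, PSMB9 in 45.0 to 61.6% and 35.0 to 37.5%, and TAP1 in 28.0 to 33.5% and 17.7 to 22.9%. TAPBP overlapped, from 30.3% in paclitaxel to 52.3% in palbociclib without JQ1 and 31.2 to 37.7% with it. HLA-E overlapped as well, at 56.6 to 63.6% and 49.3 to 58.2%. B2M was found in 99.8 to 100% of cells of every library, so its share carried no difference. HLA-F was found in 2.02 to 4.23% of cells without JQ1 and 0.358 to 1.82% with it. After thinning to 5000 UMIs its shares overlapped, at 0.885% in DMSO and 0.968% in JQ1+paclitaxel. TAP2 was found in at most 12.6% of cells, in paclitaxel. A share of cells with a UMI reflects the level as well as the number of cells expressing a gene, and no cell type that lacks class I genes was present to measure free RNA; the leukocyte marker PTPRC, which these cells should lack, had mean levels of 0.0421 CPM with JQ1 and 0.248 CPM without.

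**Figure D3:**
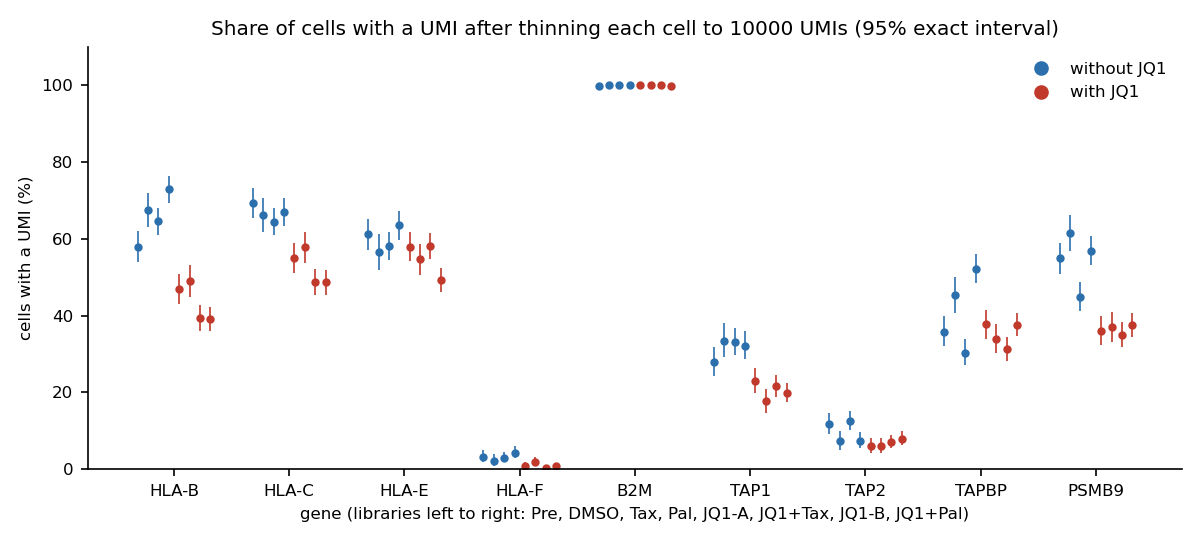
Share of cells with at least 1 UMI of each gene (percent, vertical axis from 0) after thinning each cell to 10000 UMIs; points are libraries in the order given on the axis, bars 95% exact binomial intervals, blue without and red with JQ1. HLA-B, HLA-C, HLA-F, TAP1 and PSMB9 show red points below blue ones, while B2M is near 100% throughout.

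Cells of a library differed in HLA-B and B2M by more than counting gives and by more than the median gene did, in each of the 8 libraries. The variance over the mean of thinned UMIs, which is 1 for counting noise, was 1.33 to 1.83 for HLA-B, 1.09 to 1.41 for HLA-C, 1.14 to 1.44 for PSMB9 and 2.37 to 5.85 for B2M, beside a median of 1.14 to 1.21 over genes averaging 0.5 UMI or more. HLA-C in paclitaxel and PSMB9 in JQ1-A lay below the median gene of their library, and HLA-E ranged from 1.01 to 1.23. This ratio grows with the mean, which was 11.6 to 14.9 UMIs for B2M. The squared coefficient of variation beyond counting, which does not, was 0.284 to 0.917 for HLA-B and 0.103 to 0.349 for B2M, beside a median of 0.101 to 0.161, with B2M in paclitaxel close to the median of that library. The variance over the mean was 0.980 to 1.14 for TAP1 and 0.872 to 1.099 for TAPBP, close to counting noise at their low means of under 1 UMI per cell.

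Within a library, cells with more B2M also held more HLA-B, HLA-C and PSMB9. The Spearman correlation of thinned counts, averaged over the 8 libraries, was 0.232 for HLA-B with B2M (range 0.157 to 0.333), 0.231 for HLA-C with B2M (0.169 to 0.281), 0.226 for B2M with PSMB9 (0.106 to 0.351) and 0.202 for HLA-B with HLA-C (0.140 to 0.258). These 4 of 36 pairs lay above the 95th percentile of all pairs of detected genes in each of the 8 libraries, a percentile of 0.0758 to 0.0998. HLA-C with PSMB9 did so in 7 libraries, HLA-B with PSMB9 in 6 and HLA-E with B2M in 5. The cells of a library share its capture and its depth, and 445 to 972 cells stood behind each value. The background pairs were of genes detected in at least 20% of cells and were not matched for level. B2M averaged 11.6 to 14.9 thinned UMIs per cell.

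By contrast, the transporter and its docking protein did not follow one another from cell to cell. The mean correlation was 0.0017 for TAP1 with TAP2, 0.011 for TAP1 with TAPBP and -0.006 for B2M with TAPBP. In 19 of the 36 pairs no library passed the 95th percentile. With counts this low a weak correlation says little, since a cell held on average less than 1 UMI of TAP1, TAP2 and TAPBP. Among the genes most correlated with the summed members across cells, of 3062 detected in every library, were CFL1 (mean rho 0.407), PRDX1 (0.385), AKR1B1 (0.381) and MYL6 (0.366). Most UMIs of that sum were of B2M.

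**Figure D4:**
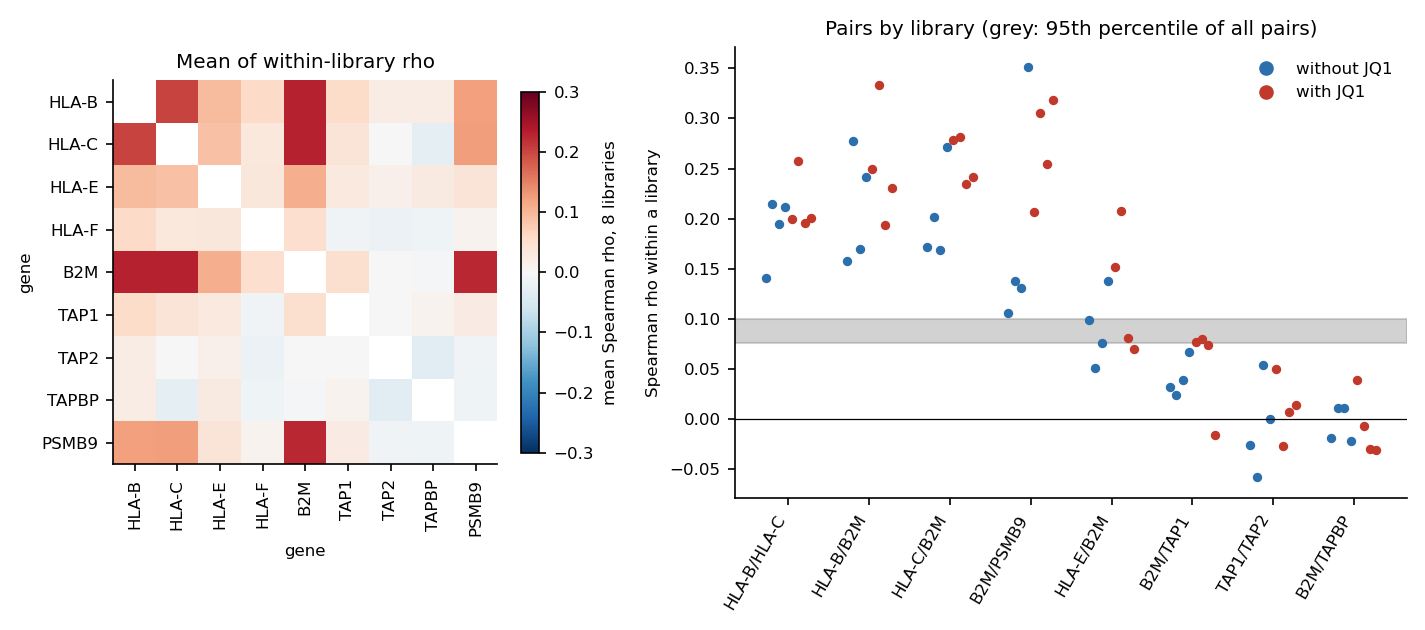
Left, mean over 8 libraries of the Spearman correlation (color scale) between the thinned counts of each pair of genes across cells; right, the correlation within each library for 8 pairs (vertical axis; blue without and red with JQ1), with the range over libraries of the 95th percentile of all gene pairs in grey. HLA-B, HLA-C, B2M and PSMB9 lie above the grey band with one another or near it, and TAP1, TAP2 and TAPBP lie around 0.

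The phase of the cell cycle differed between the libraries, so members were also read within called phases. Cells called G1 made up 15.4% before treatment, 17.1% in DMSO, 1.23% in paclitaxel (9 cells) and 55.1% in palbociclib, and 37.2 to 45.2% in the 4 libraries with JQ1. Phase was scored from S and G2/M gene lists on thinned cells, and libraries with under 20 cells in a phase were left out of it. HLA-B, HLA-C, TAP1 and PSMB9 were lower in every library with JQ1 than in every one without within G1, within S and within G2/M cells. HLA-E separated in this way within G2/M cells only and HLA-F within S cells only. TAPBP did so within G1 cells only, at 38.6 to 49.7 CPM with JQ1 and 56.7 to 86.3 CPM without, with paclitaxel left out. These are CPM without the TMM correction, and the share of all genes that separated in this way within a phase was not counted. On the CPM scale over all cells of a library, 22.7% of tested genes did. In S cells, HLA-B was at 58.9 ± 9.03 CPM with JQ1 (SD, n = 4) and 118 ± 22.5 CPM without (n = 4), PSMB9 at 51.4 ± 3.44 and 96.3 ± 25.7 CPM, and TAP1 at 20.6 ± 2.77 and 34.2 ± 4.40 CPM.

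Some members varied with the phase itself. HLA-E, TAPBP and B2M were higher in G1 than in G2/M cells in 7 of 7 libraries, with median ratios of 1.13, 1.16 and 1.04. PSMB9 was higher in G1 in 1 of 7 libraries (median ratio 0.844), TAP1 in 1 of 7 (0.955) and HLA-B in 2 of 7 (0.945). The palbociclib library, with the largest G1 share, was also the one with the highest TAPBP, at 86.3 CPM in its G1 cells; in its G2/M cells TAPBP was at 68.4 CPM and in its S cells at 73.3 CPM, above every other library in those phases.

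**Figure D5:**
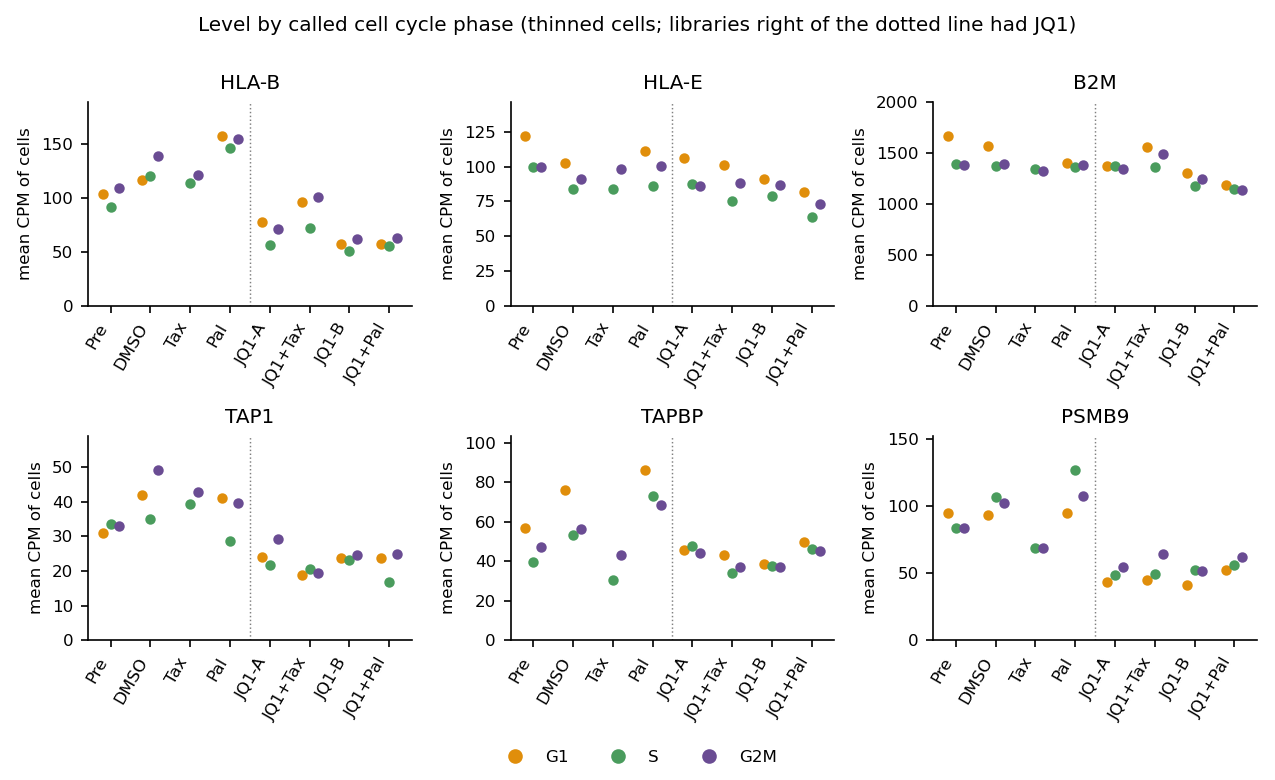
Mean level of 6 genes in cells called G1, S or G2/M (CPM of thinned cells, vertical axes from 0) by library; a point is the mean over the cells of a library in a phase, and phases with under 20 cells are left out. HLA-B, TAP1 and PSMB9 are lower right of the dotted line, in the libraries with JQ1, in each phase, and TAPBP is highest in palbociclib in each phase.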

How the data were processed

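The authors sequenced 10x Genomics Chromium 3′ libraries, aligned them to hg19 and counted UMIs with Cell Ranger, and analyzed them in Seurat, tools that the submitters' processing notes name too. The deposited table held raw UMI counts per gene and cell, and a second deposited file gave each cell's library.

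Within each library, UMIs were added up over every deposited cell. Genes with at least 5 CPM in at least 2 libraries were tested in edgeR 4.0.16 (R 4.3.3; TMM, quasi-likelihood test, two-sided, called at an adjusted p under 0.05), with DESeq2 1.42.0 as an alternative. SEs were derived from the F statistic and are approximate. The fits were checked on simulated counts. Those held larger changes than the members showed, so the check does not cover changes of the members' size. With 1 library per treatment in an experiment, p-values measure the spread between libraries of unlike treatments. Values per cell used the 5575 cells that met the study's filter (mitochondrial share of 1 to 15%, 2000 genes or more), thinned to 10000 UMIs; 88 shallower cells were left out, and no doublet caller was run. Phases were scored in scanpy 1.11.5 with Seurat's lists. Intervals cover counting error only.

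All 9 members are named; of each list, up to 4 called genes in each direction with the largest JQ1 fold change, and the 5 genes nearest to the members over libraries and over cells, of which 1 is not reported here. The members and lists were chosen with earlier results of these data known.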

Additional observations from a re-analysis of the deposited data

How the results depend on the processing

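For JQ1, the log2 fold changes of HLA-B, HLA-C, TAP1, TAP2 and PSMB9 stayed negative in all 18 alternatives, while HLA-E (0.11 without palbociclib, 0.08 without JQ1+palbociclib, 0.17 within the JQ1+paclitaxel experiment; -0.10 to 0.11 without 1 library), TAPBP (0.083, 0.055 and 0.15 in the same fits; -0.30 to 0.083 over all fits without 1 library) and B2M (-0.10 by library totals only, -0.12 within the JQ1+palbociclib experiment) changed sign. Members called numbered 5 with no filter on low counts, 0 in the 3 matched pairs and 1 within the JQ1+paclitaxel experiment. They numbered 2 to 4 when a library was left out. Genes called for JQ1 numbered 2043 with the experiment as a term, 361 in the matched pairs, 131 within the JQ1+palbociclib experiment and 1760 to 4190 without 1 library; the alternatives within an experiment or in pairs hold fewer libraries. With the experiment as a term, HLA-B was at -0.65 (adjusted p = 0.0582). For palbociclib they numbered 515 by DESeq2, 205 with no filter, 0 with the experiment as a term and 0 to 938 without 1 library, with 0 to 1 member called; for paclitaxel 9, 2 and 0 to 4; for the interactions DESeq2 called 33 (palbociclib) and 80 (paclitaxel). Where not stated, the cause was not tested. Without thinning, mean correlations rose to 0.340 for HLA-B with HLA-C, 0.325 for HLA-B with B2M, 0.327 for HLA-C with B2M and 0.327 for B2M with PSMB9. The TMM-scaled CPM and the filter on the mean over libraries were alternatives chosen after seeing the data. No paired analysis was possible because no groups share 2 replicate numbers; the 3 matched pairs rest on treatment. Depth limited HLA-F and TAP2. In 18 groups of 4 libraries, no member had a library standing apart by Dixon's ratio.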
